A study of Homo sapiens with 15 samples.

Results

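The CIP/KIP and INK4 genes encode the 2 classical families of cyclin-dependent kinase (CDK) inhibitors. The rows of these genes were taken by symbol, CDKN1A, CDKN1B and CDKN1C for the 3 CIP/KIP genes and CDKN2A, CDKN2B, CDKN2C and CDKN2D for the 4 INK4 genes, which made 7 of the 57820 gene IDs in the files. They were followed in 15 RNA-seq libraries of 3 human acute myeloid leukemia (AML) lines, MOLM-13, HL-60 and U937, each transduced with the empty lentiviral vector pLKO or with a short hairpin RNA against the ubiquitin ligase RNF5 (shRNF5), in order to ask how RNF5 knockdown (RNF5-KD) changes the transcriptome of AML cells. Both constructs had 3 libraries in HL-60 and 2 in U937, and MOLM-13 had 3 with pLKO and 2 with shRNF5. No other treatment is given for any group, and the harvest was placed 7 days after it by the sample labels and 5 days after it by the series design. The hairpin that was sequenced is not named, each group is a single bulk line, and no label states that replicates were separate cultures, so the p-values measure only the spread between these libraries, which may be technical.

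Progression from G1 into S phase is driven by cyclin D with CDK4 or CDK6 and by cyclin E or A with CDK2. The INK4 proteins (p16INK4a, p15, p18 and p19) bind CDK4 and CDK6 and keep cyclin D from activating them. The CIP/KIP proteins (p21, p27 and p57) bind whole cyclin-CDK complexes and block CDK2 above all, and in the myeloid lineage these inhibitors accompany the exit from the cycle during differentiation.

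The values are normalized read counts, which the authors scaled per library within each line and rounded. Libraries held an estimated 9700000 to 63100000 counted reads, and in MOLM-13 both shRNF5 libraries (63100000 and 24400000) were deeper than the pLKO libraries (9700000 to 15300000), so that depth and construct cannot be told apart there. RNF5 itself fell in each line, by a log2 fold change of -3.25 in HL-60, -3.64 in U937 and -3.77 in MOLM-13, and its values with shRNF5 (37 to 133) lay below all values with pLKO (506 to 1223). Of 11 myeloid markers, 11, 10 and 9 were above 0 in MOLM-13, U937 and HL-60. CD14 was at 0 in U937, and CSF1R and CD14 were at 0 in HL-60. The summed myeloid markers went from between 42427 and 47411 with pLKO to between 24630 and 28342 with shRNF5 in U937 and from between 119678 and 145844 to between 163448 and 243055 in HL-60. In MOLM-13 the groups overlapped. These sums are led by the most abundant markers, and the means of single markers did not all move with them. Of 5 T cell markers, CD3D, CD3E, CD3G and CD2 were at 0 in every library, and TRAC was above 0 in each line, at 9 to 105. In U937 it was 9 to 25 with pLKO and 45 in both shRNF5 libraries. In bulk RNA, fewer cells in one state and less RNA per cell cannot be told apart.

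The regions around the transcription starts of the genes that the results turn on are shown for CDKN1A and CDKN2D, which had higher values with shRNF5 in every line, and for CDKN2A, whose 2 starts give different proteins. Each run covers 250 bases before to 50 bases after the start in the RefSeq set for GRCh38.p14, read 5′ to 3′ on the strand of the gene. Capitals mark the GC box GGGCGG and the CCAAT box, each on either strand. CDKN1A lies at chr6:36678464-36678763 (forward strand), CDKN2D at chr19:10568930-10569229 (reverse), the CDKN2A start nearer to the first exon of p16INK4a at chr9:21974808-21975107 (reverse) and the start further upstream, that of p14ARF, at chr9:21995275-21995574 (reverse).
CDKN1A: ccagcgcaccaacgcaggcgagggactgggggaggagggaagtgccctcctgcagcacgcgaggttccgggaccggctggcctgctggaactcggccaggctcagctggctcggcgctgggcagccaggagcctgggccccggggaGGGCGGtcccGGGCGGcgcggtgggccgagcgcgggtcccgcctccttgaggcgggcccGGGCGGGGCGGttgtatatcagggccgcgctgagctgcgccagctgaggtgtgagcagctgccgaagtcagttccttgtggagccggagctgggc
CDKN2D: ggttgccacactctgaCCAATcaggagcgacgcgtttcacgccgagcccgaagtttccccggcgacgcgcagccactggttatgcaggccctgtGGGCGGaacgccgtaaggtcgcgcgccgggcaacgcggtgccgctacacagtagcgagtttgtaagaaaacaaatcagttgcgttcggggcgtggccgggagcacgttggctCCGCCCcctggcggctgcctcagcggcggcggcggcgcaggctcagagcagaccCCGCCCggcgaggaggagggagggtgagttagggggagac
CDKN2A, p16INK4a start: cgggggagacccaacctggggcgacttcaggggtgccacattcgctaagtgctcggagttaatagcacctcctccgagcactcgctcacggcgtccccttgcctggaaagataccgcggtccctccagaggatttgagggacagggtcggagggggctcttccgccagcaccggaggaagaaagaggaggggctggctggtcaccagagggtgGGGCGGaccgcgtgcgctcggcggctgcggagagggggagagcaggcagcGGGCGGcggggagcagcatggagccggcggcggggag
CDKN2A, p14ARF start: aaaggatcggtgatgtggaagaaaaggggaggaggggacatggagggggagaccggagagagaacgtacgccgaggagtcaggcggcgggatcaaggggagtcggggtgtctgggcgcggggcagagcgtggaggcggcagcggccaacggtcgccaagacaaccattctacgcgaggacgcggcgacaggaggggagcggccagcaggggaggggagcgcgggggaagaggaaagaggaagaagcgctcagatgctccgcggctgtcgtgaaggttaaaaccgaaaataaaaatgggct

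The CDKN1A window held 4 GC boxes, at -104, -94, -45 and -40 from the start, the last pair overlapping by 1 base. The CDKN2D window held 3, at -156, -44 and +11, and 1 CCAAT box at -234. The p16INK4a start of CDKN2A had 2 GC boxes, at -37 and +14, and the p14ARF start had no match to either motif. A GC box was found in 45.0% and a CCAAT box in 34.6% of all 35116 windows of this length, so that these matches are common and serve as description only. The letters CACGTG of the E box (7.3% of windows), TATAAA (11.5%) and the E2F sites TTTCCCGC (1.6%) and TTTGGCGC (0.7%) were not in these 4 windows. CDKN1C had no entry in the table of starts.

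CDKN1A, which encodes p21, lies on chromosome 6 of GRCh37, the build of the files, from 36644237 to 36655114 on the forward strand. In MOLM-13 its values were 4671, 4468 and 6899 with pLKO and 10758 and 15509 with shRNF5. In U937 they were 201 and 115 with pLKO and 1057 and 744 with shRNF5. In HL-60 they were 12, 7 and 7 with pLKO and 41, 21 and 39 with shRNF5. In each line both groups were apart, with every shRNF5 library above every pLKO library, while the level itself was highest in MOLM-13 and lowest in HL-60. The share of all genes with groups apart was not counted. With so few libraries, groups that do not overlap are description only, here and for the other members. The HL-60 values stand for only about 6 to 15 reads with pLKO and 17 to 49 with shRNF5. With limma on log2(value + 1), the log2 fold change was 1.82 ± 0.40 (SE) in HL-60 (adjusted p = 0.0115), 2.54 ± 0.35 in U937 (0.0117) and 1.30 ± 0.23 in MOLM-13 (0.0682), all adjusted over every gene tested in the line. A gene was called when its limma adjusted p was under 0.1 and its absolute log2 fold change over 0.4, and by this rule CDKN1A rose in all 3 lines. The added 1 makes changes at low values look smaller than they are. The MOLM-13 call is the weakest. It was lost without pLKO replicate 2 (limma adjusted p = 0.191), without shRNF5 replicate 1 (0.205) or 2 (0.416) and without a mean-variance trend (0.163), with log2 fold changes between 1.04 and 1.56 when any library was left out. The U937 call was lost without pLKO replicate 2 (0.256) and without shRNF5 replicate 1 (0.519) or 3 (0.11), fits in which a lone library was assumed to vary like the others.

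**Figure D1:**
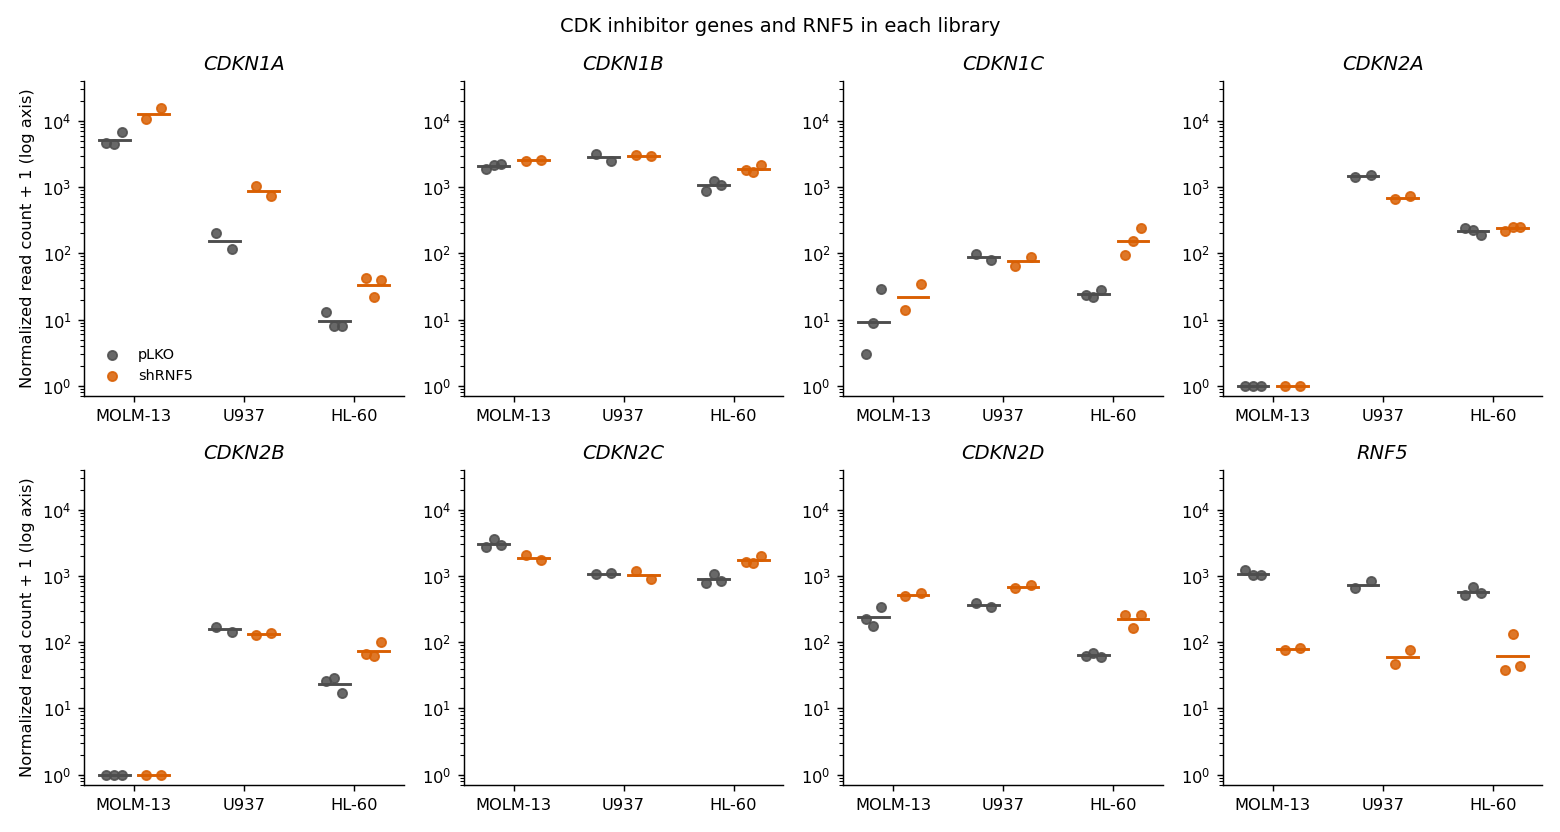
Normalized read count plus 1 (log axis) of the 7 CDK inhibitor genes and RNF5 in each of the 15 libraries, by line, with pLKO in grey and shRNF5 in orange. Points are libraries and bars are group means of the log values. CDKN1A and CDKN2D sit higher with shRNF5 in each line, and CDKN2A and CDKN2B sit at 0 (plotted at 1) in all MOLM-13 libraries.

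CDKN1B encodes p27, whose amount is set largely by ubiquitin-mediated degradation, and lies on chromosome 12 from 12838432 to 12875303. Its HL-60 values were 885, 1257 and 1092 with pLKO and 1810, 1720 and 2191 with shRNF5, with no overlap, and it rose by a log2 fold change of 0.83 ± 0.15 (limma adjusted p = 0.0062). In MOLM-13 the values were 1864, 2191 and 2234 with pLKO and 2526 and 2596 with shRNF5. These groups did not overlap either, but the log2 fold change of 0.29 ± 0.14 did not pass the test (0.341). In U937 the values were 3176 and 2494 with pLKO and 3045 and 2911 with shRNF5, so the shRNF5 libraries lay within the pLKO range (log2 fold change 0.08, 95% interval -0.45 to 0.61). GPR19, whose span overlaps that of CDKN1B on the opposite strand in the GENCODE annotation used for positions, reached at most 53 in any library. The interval that was counted for CDKN1B is not given and may be shorter than this span.

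CDKN1C, for p57, an imprinted gene on chromosome 11 from 2904443 to 2907005, was the member with the lowest values in MOLM-13 among those above 0 there. In HL-60 it had 23, 21 and 27 with pLKO and 95, 154 and 237 with shRNF5. The log2 fold change of 2.63 ± 0.32 (limma adjusted p = 0.00125) ranked 42 from the top of 12570 genes, the highest place of the 7 members in this line. In U937 it had 97 and 79 with pLKO and 64 and 88 with shRNF5, with overlap (log2 fold change -0.22, 95% interval -1.19 to 0.75). In MOLM-13 it had 2, 8 and 28 with pLKO and 13 and 33 with shRNF5, with overlap and a wide interval (1.24, -0.93 to 3.42). The first of these values stands for about 1 read, and no change was detectable at this depth.

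CDKN2D, for p19 of the INK4 family, lies on chromosome 19 from 10677136 to 10679735. Its values in MOLM-13 were 226, 173 and 333 with pLKO and 497 and 544 with shRNF5. In U937 they were 388 and 338 against 664 and 717. In HL-60 they were 61, 68 and 59 against 260, 164 and 255. As for CDKN1A, all shRNF5 libraries lay above all pLKO libraries in every line. CDKN2D rose in HL-60 (1.81 ± 0.22, limma adjusted p = 0.00125) and in U937 (0.93 ± 0.28, 0.0678). In MOLM-13 the log2 fold change of 1.14 ± 0.28 missed the threshold (0.119). It passed under library weights (0.00902), which called 2224 genes against 266 in the main fit. It also passed under a correction for transcript length (0.09) and a single fit over all libraries (0.0464). It did not pass without the trend (0.2) or without pLKO replicate 1 (0.109), 2 (0.24) or 3 (0.112). With any library left out, the MOLM-13 log2 fold change ran from 0.92 to 1.39. The U937 call was lost without the trend (0.14) and without any 1 of the 4 libraries (0.106 without pLKO replicate 3, 0.256 without pLKO replicate 2, 0.605 without shRNF5 replicate 1 and 0.335 without shRNF5 replicate 3).

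CDKN2C, for p18 of the INK4 family, lies on chromosome 1 from 51426417 to 51440306 and did not move alike in the lines. In HL-60 its values were 778, 1082 and 842 with pLKO and 1624, 1559 and 2017 with shRNF5. In MOLM-13 they were 2745, 3562 and 2910 with pLKO and 2047 and 1737 with shRNF5. The groups were apart in both lines, in opposite directions. It rose in HL-60 (0.95 ± 0.16, limma adjusted p = 0.00389), and in MOLM-13 the log2 fold change was -0.69 ± 0.16 (0.115). The MOLM-13 value passed without pLKO replicate 1 (0.0556), with library weights (0.00823) and in a single fit over all libraries (0.0874). It did not pass without pLKO replicate 2 (0.24) or 3 (0.129) or without the trend (0.212). With any library left out, the MOLM-13 log2 fold change ran from -0.81 to -0.58. In U937, where the values were 1055 and 1115 with pLKO and 1185 and 889 with shRNF5, the groups overlapped (-0.08, 95% interval -0.65 to 0.49).

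CDKN2A and CDKN2B lie next to each other on chromosome 9, on the reverse strand from 21967751 to 21995300 and from 22002902 to 22009304. CDKN2A gives p16INK4a and, from the upstream start shown above, p14ARF, and the gene-level value pools both transcripts. In MOLM-13 both genes were listed at 0 in all 5 libraries. Among the 57 genes within 1 Mb on either side, FOCAD, PTPLAD2, KLHL9 and MTAP were above 0 in every line, with MTAP between 1108 and 1465 in MOLM-13, while CDKN2A, CDKN2B and the overlapping antisense gene CDKN2B-AS1 were above 0 in U937 and HL-60 and at 0 in MOLM-13. A value of 0 marks a gene that failed the authors' filter on low counts, and a deleted gene and an unexpressed one cannot be told apart in these files.

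**Figure D2:**
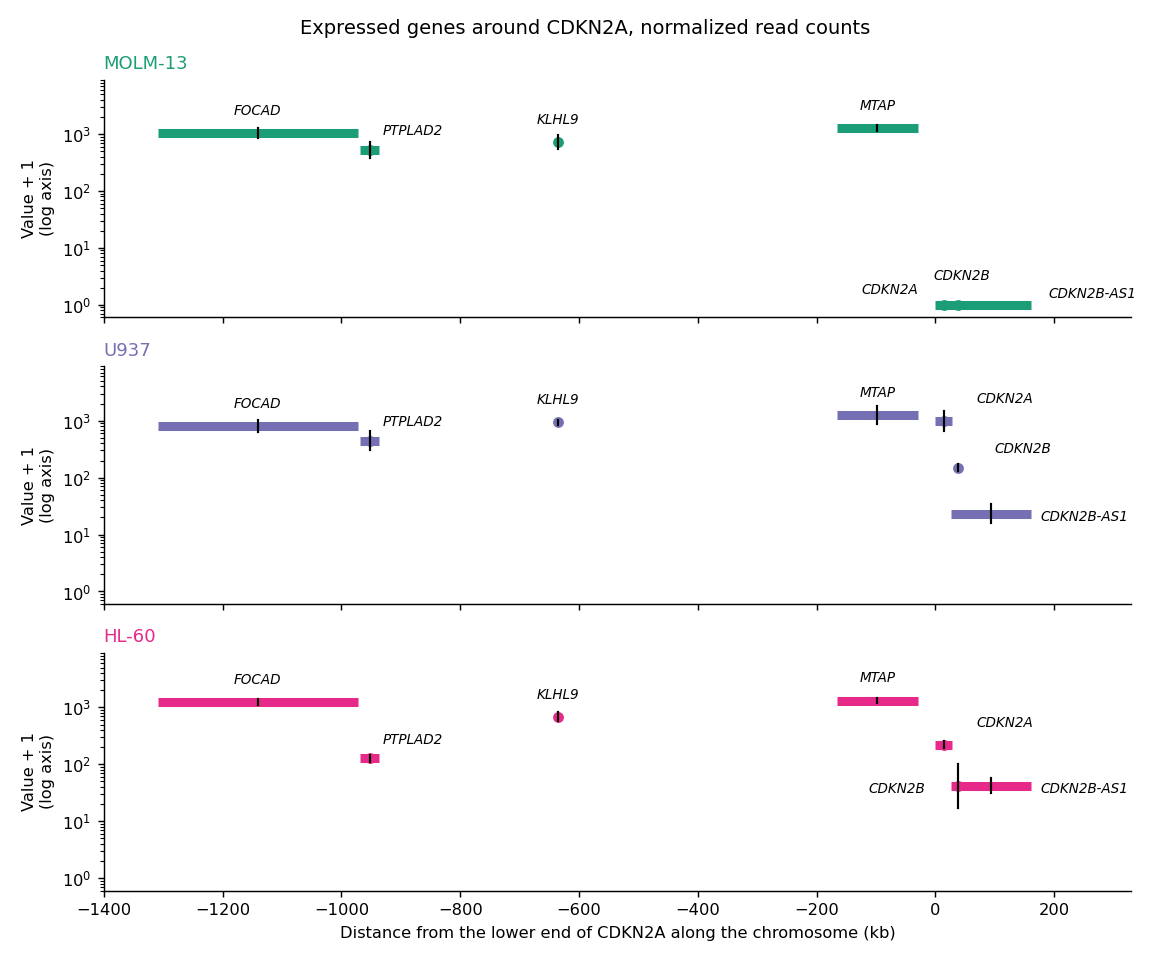
Normalized read count plus 1 (log axis) of the 7 genes near CDKN2A that were above 0 in some line, against distance along chromosome 9 from the lower end of CDKN2A in kilobases, 1 panel per line. Thick bars span each gene at the geometric mean of its lowest and highest library, dots mark short genes and thin vertical lines run from the lowest to the highest library. CDKN2A, CDKN2B and CDKN2B-AS1 sit at 0 (plotted at 1) in MOLM-13, while MTAP beside them runs from 1108 to 1465.

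CDKN2A was the 1 member that passed the call rule downwards in any line. In U937 it had 1409 and 1503 with pLKO and 659 and 724 with shRNF5, a log2 fold change of -1.07 ± 0.25 (limma adjusted p = 0.0343). In HL-60 it had 244, 224 and 190 with pLKO and 218, 251 and 246 with shRNF5, which overlapped (0.12, 95% interval -0.24 to 0.49). The U937 call was lost without the trend (0.12), without pLKO replicate 2 (0.256) and without shRNF5 replicate 1 (0.597) or 3 (0.212). CDKN2B, for p15, which is known as a target of TGF-β signalling, had 25, 28 and 16 with pLKO and 65, 61 and 99 with shRNF5 in HL-60. It rose there, with no overlap between groups, by a log2 fold change of 1.67 ± 0.31 (0.00625). In U937 it had 171 and 142 with pLKO and 128 and 136 with shRNF5, apart but close (-0.24 ± 0.37, 0.709). In U937 both neighbours were lower with shRNF5, with overlapping intervals (-1.62 to -0.53 for CDKN2A and -1.05 to 0.57 for CDKN2B). Whether their changes differed from each other was not tested. CDKN2B-AS1, which overlaps both on the opposite strand, had 15 to 33 in U937 and 30 to 56 in HL-60. Whether the counting used strand is not stated, so antisense reads within CDKN2A and CDKN2B could not be separated.

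Counted over the family, 1 of the 5 members tested in MOLM-13 was called up and none down by limma, beside 1.03% of all genes called up and 1.01% called down. In U937, 2 of 7 were called up and 1 down, beside 6.92% and 8.74% of all genes. In HL-60, 6 of 7 were called up and none down, beside 13.6% and 12.3%. No member in MOLM-13 and 2 in U937 passed at an adjusted p under 0.05, and the 6 in HL-60 all did. The HL-60 calls held when any library was left out and in every other fit in which the genes were tested. A filter at a mean of 50 removed CDKN1A and CDKN2B there. The shRNF5 libraries of HL-60 also had the higher summed myeloid markers given above, those of U937 had the lower ones, and the part of these in the counts was not tested.

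**Figure D3:**
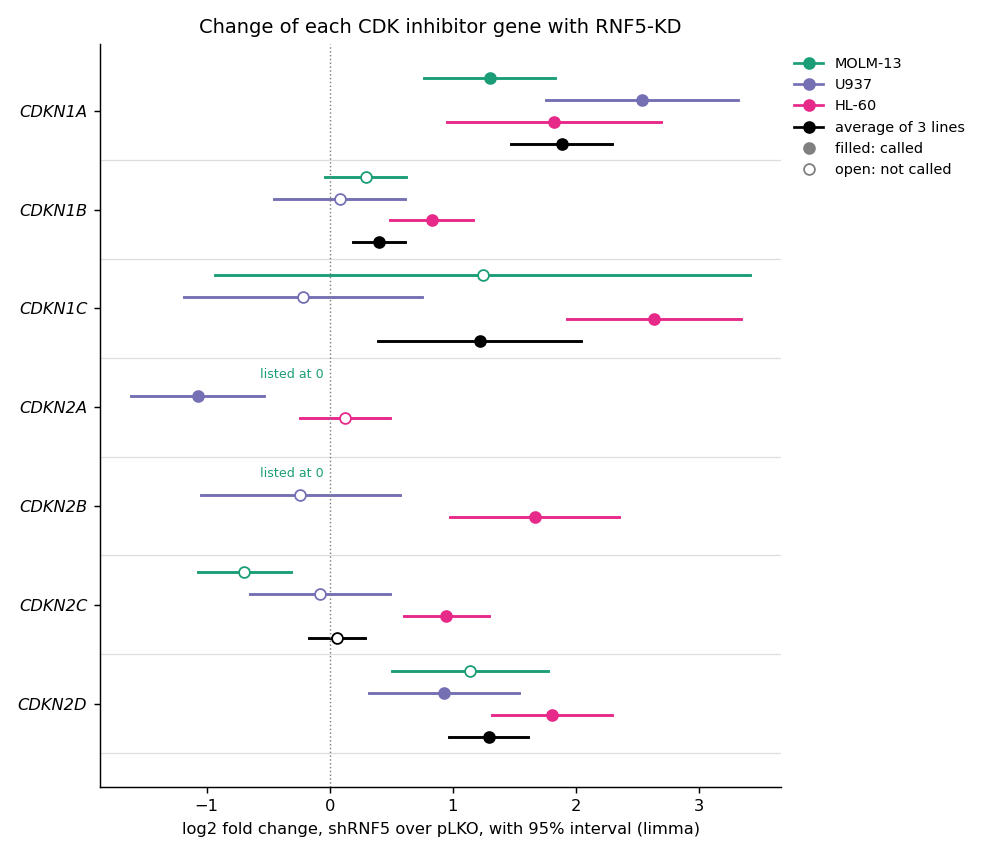
Log2 fold change of shRNF5 over pLKO with its 95% interval from limma, for each CDK inhibitor gene in MOLM-13 (green), U937 (purple), HL-60 (pink) and averaged over the 3 lines (black). Filled points passed the call rule and open points did not. CDKN1A is the 1 gene with filled points in every line, CDKN1B, CDKN1C, CDKN2B and CDKN2C have filled single-line points only in HL-60, and CDKN2A has 1 only in U937 and on the negative side.

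The mean of the 3 within-line changes was fitted over all 15 libraries, on the 11072 genes with values above 0 in every line, which leaves out CDKN2A and CDKN2B. It gave 4 of the 5 remaining members as called up and none down, beside 7.62% of genes called up and 6.61% called down. CDKN1B and CDKN1C were called in HL-60 alone (0.83 and 2.63), with 0.08 and -0.22 in U937 and 0.29 and 1.24 in MOLM-13. Their means therefore do not show a rise shared by the lines. CDKN1A had a mean log2 fold change of 1.89 ± 0.19 (limma adjusted p = 2.8e-05), the rank 9 from the top. CDKN2D followed with 1.29 ± 0.15 (7.19e-05, rank 39) and CDKN1C with 1.22 ± 0.39 (0.0431, rank 53). The CDKN1C call was lost without MOLM-13 shRNF5 replicate 2 (0.144). CDKN1B, at 0.40 ± 0.10 (0.0125), lay at the fold limit itself and fell under it in 9 of 22 alternatives. CDKN2C, with opposite directions in its lines, had 0.06 ± 0.11 (0.758). An exact permutation test of each mean over libraries within lines (1200 arrangements, two-sided) gave p = 0.000833 for CDKN1A, the smallest it allows, 0.00167 for CDKN2D, 0.00583 for CDKN1B, 0.0317 for CDKN1C and 0.784 for CDKN2C. These 5 p-values are not adjusted. A single line allows no p below 0.1 in MOLM-13 and HL-60 and 0.333 in U937.

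Differences between lines were tested as interaction terms in the same fit and called at an adjusted p under 0.1. Between MOLM-13 and U937, 0 of 5 members differed by limma, beside 15.4% of all genes. At an unadjusted p under 0.05, CDKN1A (-1.23, 95% interval -2.29 to -0.18, adjusted p = 0.129) and CDKN2C (-0.62, 0.168) would have. Between MOLM-13 and HL-60, CDKN2C alone differed (-1.64 ± 0.25, 0.00545), beside 8.82% of genes. Between U937 and HL-60, 4 of 5 differed, beside 37.2% of genes, and each had the higher log2 fold change in HL-60. They were CDKN1C (-2.85 ± 0.95, 0.0362), CDKN2C (-1.03 ± 0.26, 0.0107), CDKN1B (-0.75 ± 0.24, 0.0313) and CDKN2D (-0.88 ± 0.37, 0.0861). The CDKN2D difference is the least stable of these, with 11 of 22 alternatives above the threshold. The CDKN1B difference was lost without U937 pLKO replicate 2 (0.125) and that of CDKN1C without U937 shRNF5 replicate 1 (0.124). CDKN1A, with a difference of 0.71 (95% interval -0.30 to 1.72, 0.275), was the member not called. In a fit of U937 and HL-60 only, added so that the INK4 pair on chromosome 9 could enter, the differences were -1.20 ± 0.26 for CDKN2A (0.00723) and -1.90 ± 0.47 for CDKN2B (0.0128), beside 34.4% of genes called.

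Across the 15 libraries, after the mean of each line was removed from log2(value + 1), CDKN1A and CDKN2D had a Pearson r of 0.888, the highest of the 10 pairs of the 5 members above 0 throughout. The construct separates these points, and with the mean of each group removed r was 0.659. CDKN1B and CDKN2D had 0.85 and 0.377 on these measures, CDKN1B and CDKN1C 0.816 and 0.432, and CDKN1A and CDKN2C 0.21 and -0.076. Genes most like each member were picked by the first measure among 9625 genes with a mean of at least 50 in each line. Both measures are given in the same order. For CDKN1A they were AKIRIN1 (r = 0.965 and 0.829), CCDC69 (0.964 and 0.708) and NCF1 (0.955 and 0.688). For CDKN2D they were LINC00984 (0.978 and 0.825), LAIR1 (0.96 and 0.945) and ERMAP (0.951 and 0.682). For CDKN1B they were ELMO2 (0.961 and 0.836), PVRL2 (0.943 and 0.833) and ATP6V1D (0.942 and 0.772). For CDKN1C they included KRCC1 (0.925 and 0.862) and NMNAT1 (0.909 and 0.925). For CDKN2C they were YEATS4 (0.925 and 0.748), SLC2A4RG (0.918 and 0.737) and SPCS2 (0.917 and 0.594). These are descriptions over libraries that share their line, construct and scaling, and they carry no test.

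**Figure D4:**
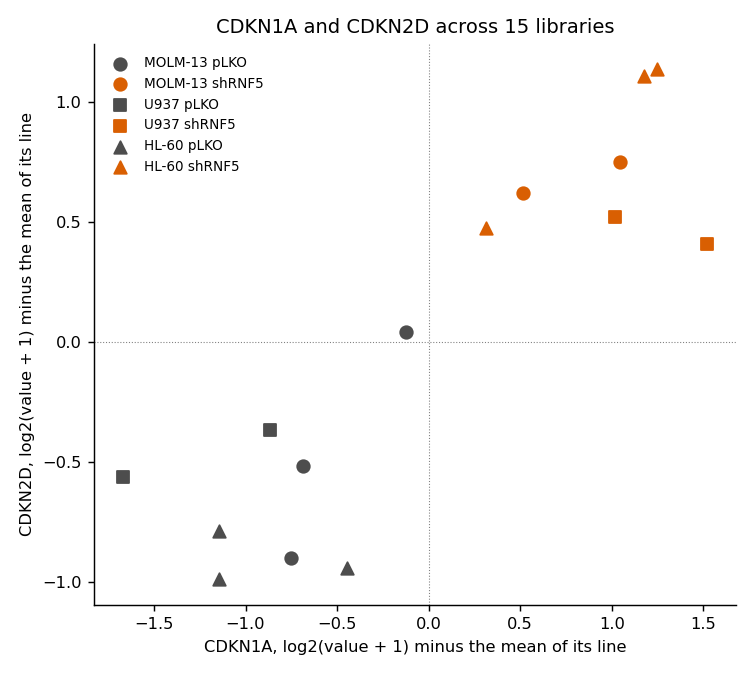
Level of CDKN2D against that of CDKN1A in the 15 libraries, each as log2(value + 1) minus the mean of its line, with marker shape for the line and grey or orange for pLKO or shRNF5. All 7 shRNF5 libraries lie in the upper right, and pLKO libraries lie at lower values of both genes.

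The partners of these inhibitors were read from lists chosen with earlier results of these data known. Counts of called genes in the lists stand beside the shares of all genes called given above, 13.6% up and 12.3% down in HL-60, 6.92% and 8.74% in U937 and 1.03% and 1.01% in MOLM-13, and a count near these is no result about the list. Of 13 cyclins and CDKs, HL-60 had 3 called up and 3 down (23.1% each), U937 had 3 up (23.1%) and MOLM-13 had 1 up (7.69%), with medians of 0.21, 0.42 and -0.04 on the log2 scale where the medians of all genes were 0.0020, 0.0042 and 0.0073. Cyclin D1, CCND1, went up from a mean of 289.0 to 704.0 in MOLM-13 (1.29, limma adjusted p = 0.0704) and fell in HL-60 (879.3 and 398.0, -1.16, 0.00199). In U937 the called genes were CCNE2 (3.06, 0.0036), CCND3 (2.18, 0.00881) and CCNE1 (1.78, 0.0516), all partners of G1 CDKs. In HL-60 CCNA1, from a low mean of 13.3 to 71.3 (2.31, 0.00623), and CCNE2 (1.16, 0.00962) rose. Outside the rule for named genes, CCND3 also rose there (0.77, 0.00573), and CCND2 (-0.91, 0.00482) and CCNE1 (-0.70, 0.00885) fell. The kinases themselves, CDK2, CDK4 and CDK6, were not called in any line, though CDK4 in HL-60 (0.39, limma adjusted p = 0.0935) missed on the fold limit alone.

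Of 26 E2F-driven S phase genes, which are silenced when RB stays unphosphorylated, none was called in MOLM-13, where 3 were higher with shRNF5 and the median was -0.41. In U937, 6 (23.1%) were called up, 24 were higher and the median was 0.74, led by CCNE2, by RRM2 (2.20, limma adjusted p = 0.0144), a subunit of ribonucleotide reductase, and by POLA1 (1.34, 0.0314), the catalytic subunit of DNA polymerase alpha. In HL-60, 3 were called up, 11.5% and so no more than among all genes, and the median was -0.03. The 24 mitosis genes gave medians of -0.23, 0.43 and 0.16, with 0, 3 (12.5%) and 2 (8.33%) called up, KIF11 (1.04, 0.0359) in U937 and PTTG1 (0.70, 0.0201) in HL-60 having the largest values. The rise of CDKN1A thus stood beside different values of the S phase genes in the 3 lines. None of the 26 S phase genes was called down in any line by limma. Of all genes, only 1.01% were called down in MOLM-13, so this count says little about a fall there. In HL-60, MCM4 (-0.35, limma adjusted p = 0.0866) and TYMS (0.33, 0.0682) missed a call on the fold limit alone.

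**Figure D5:**
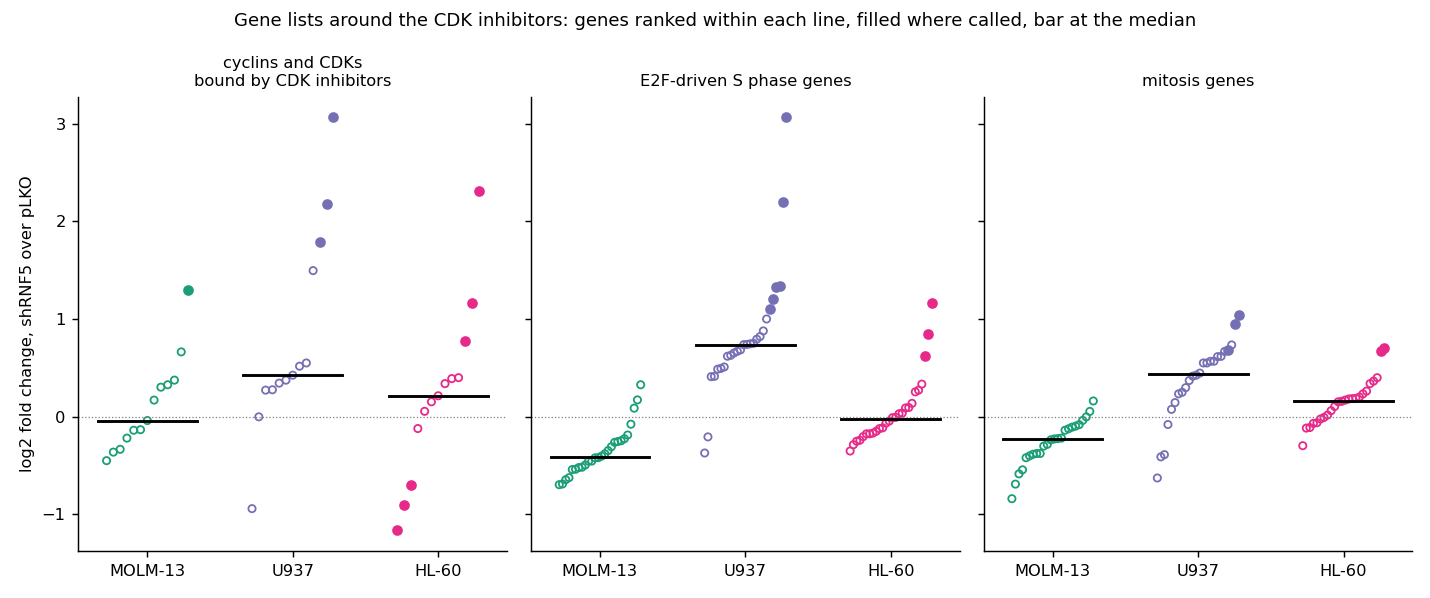
Log2 fold change of shRNF5 over pLKO for each gene of 3 lists (cyclins and CDKs, E2F-driven S phase genes and mitosis genes), ranked within MOLM-13 (green), U937 (purple) and HL-60 (pink). Filled points passed the call rule, open points did not, and black bars are list medians. The S phase median is 0.74 in U937 and -0.41 in MOLM-13.

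A further list mixed proteins that restrain CDKs with others, such as BTG1 and BTG2, that are not CDK inhibitors. In it HL-60 had 5 of 16 called up (31.2%) and 1 down. U937 had 2 of 15 up (13.3%) and 1 down, and MOLM-13 had 1 of 16 up (6.25%). BTG2, which restrains cell proliferation, rose in HL-60 (1.72, limma adjusted p = 0.00613), U937 (1.23, 0.0615) and MOLM-13 (1.46, 0.0844), as CDKN1A did. GADD45A fell in U937 (-1.98, 0.0197), where CABLES2 rose (1.27, 0.0392). GADD45B (1.19, 0.00131) and BTG1 (0.76, 0.00473) rose in HL-60.

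Of the transcription regulators known to act on CDK inhibitor genes, HL-60 had 5 of 33 tested called up (15.2%) and 6 down (18.2%), U937 had 4 of 36 up (11.1%) and 3 down (8.33%), and MOLM-13 had none of 37. The rises in HL-60 and the falls in U937 are close to the shares of all genes. MYC, which represses CDKN1A and CDKN2B through ZBTB17, fell in HL-60 from a mean of 24774.3 to 10171.7 (-1.28, limma adjusted p = 0.00134). MYC was not called in U937 (0.40, 0.463) or MOLM-13 (0.0053, 0.99), where CDKN1A was called up as well. The part of MYC in the CDKN1A and CDKN2B values was not tested. EGR1 rose to a mean of 59.5 in U937 (1.997, 0.0853) and fell from 71.0 to 18.0 in HL-60 (0.00423). ID2 rose in both (1.51, 0.0179 and 0.91, 0.0101), and ETS1 rose in U937 (1.30, 0.0212). The 3 that fell in U937, named outside the rule, were SMAD3 (-1.22, 0.0339), STAT5A (-1.07, 0.0526) and ZBTB17 (-0.96, 0.0737).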

How the data were processed

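RNA-seq libraries of MOLM-13, U937 and HL-60 were grouped by line and construct, with the replicate numbers that the labels give. Per the study's methods and the submitters' processing notes, the authors aligned reads to hg19, assigned them to genes with featureCounts and normalized each line by itself through edgeR. On the library kit the sources disagree: the labels give a 3′ end kit and the methods a directional poly(A) kit. The deposited values are a score: normalized counts that the authors rounded to whole numbers, with genes under their filter set to 0. Gaps between the low values of a library show what 1 read is worth, which put the depth at 9700000 to 63100000 reads. No counting interval is given.

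Limma 3.58.1 (R 4.3.3) was run within each line, with a mean-variance trend and empirical Bayes, on log2(value + 1) of all genes above 0 in any library (13026, 13165 and 12570), with Benjamini-Hochberg adjustment. Calls needed an adjusted p under 0.1 together with a log2 fold change beyond 0.4 in size, and differences between lines the adjusted p alone. Procedures were tested on simulated data. Positions came from GENCODE annotation on GRCh37, and starts from RefSeq, where 6 of 7 members had an entry. The members and gene lists were chosen with earlier results of these data known. Named genes were all members, RNF5, the 3 called genes of each list and line with the largest change, the 3 genes most like each member, and neighbours or genes overlapping a member. Some results for single genes and gene lists are not reported here. Alternatives were pseudocounts of 0.5 and 10, minimum means of 10 and 50, median-of-ratios scaling, no trend, library weights, a replicate block, a single fit, an adjusted p under 0.05 and leaving out each library. The correction for transcript length and the fit of U937 and HL-60 only were added after the data were examined.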

Additional observations from a re-analysis of the deposited data

Results flagged for a closer look

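Several members changed by a different amount in different lines, as tested by limma's interaction terms. CDKN2C had a log2 fold change that was -1.64 in MOLM-13 relative to HL-60 (adjusted p = 0.00545) and -1.03 in U937 relative to HL-60 (0.0107). Relative to HL-60, the change in U937 was -0.75 for CDKN1B (0.0313), -2.85 for CDKN1C (0.0362) and -0.88 for CDKN2D (0.0861). In the fit of U937 and HL-60 alone it was -1.20 for CDKN2A (0.00723) and -1.90 for CDKN2B (0.0128). U937 rests on 2 libraries a group. The part of the myeloid marker sums, which were lower with shRNF5 in U937 and higher in HL-60, was not tested.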

How the results depend on the processing

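Of 741 values of member changes under alternatives, 681 kept their direction and their side of the call rule, 39 lost the call, 15 gained it and 6 changed sign. Those 6 were of members not called. With 1 library left out they ran from -0.093 to 0.26 for CDKN1B, from -0.45 to 0.0074 for CDKN1C and from -0.29 to 0.13 for CDKN2C in U937, from -0.011 to 0.13 for CDKN2C in the average and from -0.0082 to 0.46 for CDKN2D between MOLM-13 and U937. CDKN1A between MOLM-13 and HL-60 was -0.52 and turned to 0.097 with a pseudocount of 10. The number of members called in MOLM-13 was 1, and it was 0 without the trend or at an adjusted p under 0.05, 2 with the length correction and 3 with library weights, a single fit, the replicate block or the replicate block on the numbers of the file names. Leaving out a library gave 0 to 2. The genes called in all went from 55 without the trend to 2224 with weights and 2495 with the file-name block, and from 1 to 872 when a library was left out, so the member counts moved with the total. The U937 count of 3 was 1 without the trend (475 genes called in all) and 0 to 2 when a library was left out (0 to 2369 genes). The average count of 4 was 2 with a minimum mean of 50 and 2 to 4 when a library was left out. Between MOLM-13 and U937 the count of 0 was 1 with a pseudocount of 10 and 0 to 1 when a library was left out, and between U937 and HL-60 the count of 4 was 2 to 4. A minimum mean of 50 removed some low members from the fits.

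Deviations of same-numbered libraries from their group means correlated across genes at 0.50, 0.16 and -0.11 in HL-60 and at -0.17 and -0.53 in MOLM-13, so the numbers were not taken to pair the libraries. The file names of the MOLM-13 shRNF5 libraries carry other numbers than their labels, and by those the pairs correlated at 0.53 and 0.28. With 2 shRNF5 libraries, their deviations are mirror images, so the 0.53 here and the -0.53 above are the same value with its sign turned. A block on them called CDKN1A (limma adjusted p = 3.01e-06), CDKN2C (0.000162) and CDKN2D (0.00102). In that fit pLKO replicate 1 was alone in its block, so the CDKN1A log2 fold change was 1.218, as without that library. So few libraries were left to measure spread that these p-values lean on the spread shared across genes by empirical Bayes. With the replicate block, 738 genes were called in MOLM-13 and 3580 in HL-60, and CDKN2C (limma adjusted p = 0.093) and CDKN2D (0.0148) were called in MOLM-13 beside CDKN1A. The U937 groups share only 1 number, and no block was fitted there. Depth limits CDKN1A in HL-60 and CDKN1C in MOLM-13 most, with at most 15 reads behind any pLKO value.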

Other observations

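The counts of called genes here stand beside 13.6% of all genes called up and 12.3% down in HL-60, 6.92% and 8.74% in U937 and 1.03% and 1.01% in MOLM-13. Apart from the RB and E2F family in U937 (29.4% up) and the histone deacetylases in U937 (23.1% down) and MOLM-13 (7.14% up and down), the list shares below lay near or under these. In the RB and E2F family, none of 18 tested genes was called in MOLM-13, 5 of 17 were called up in U937, led by E2F2 (log2 fold change 1.42, limma adjusted p = 0.0266), E2F8 (1.05, 0.0347) and MYBL2 (1.01, 0.0507), and 2 of 18 up and 2 down in HL-60, where E2F5 (-2.54, 0.0131) and TFDP2 (-0.84, 0.00212) fell and E2F1 rose (0.48, 0.0639). Of 20 genes of the machinery that degrades CDK inhibitors, none was called in MOLM-13, 1 up in U937 (CCNF, 0.86, 0.0606), and 2 up (CUL4B, 0.54, 0.0177, and CCNF, 0.43, 0.0527) and 2 down in HL-60, with RCHY1 at -0.53 (0.0284). SKP2, the F-box protein for p27, had 0.04, 0.74 and 0.21 and was not called.

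The list of Polycomb subunits, which are known to silence the INK4 locus, also held KDM6A and KDM6B, which are not subunits. None of 21 was called in MOLM-13. In U937, 2 of 22 were called up and 2 down, and in HL-60, 3 of 21 up and 3 down. CBX7 (-1.02, limma adjusted p = 0.0845) and EZH1 (-0.91, 0.0914) fell and RNF2 rose (0.86, 0.0749) in U937, while in HL-60 PHC1 (-1.37, 0.0095) and CBX6 (-0.66, 0.00473) fell and BMI1 rose (0.72, 0.00554). Of the histone deacetylases and their SIN3 partners, 1 of 14 was called up and 1 down in MOLM-13, 3 of 13 down in U937 and 2 of 13 up and 1 down in HL-60. SAP18, a subunit of the SIN3 complex, fell in MOLM-13 (-1.24, 0.0255), U937 (-1.01, 0.0434) and HL-60 (-0.95, 0.00661), HDAC4 rose in MOLM-13 (0.62, 0.0933), HDAC6 fell in U937 (-1.29, 0.0252) and rose in HL-60 (0.41, 0.0944), HDAC10 fell in U937 (-1.60, 0.0544) and HDAC5 rose in HL-60 (0.94, 0.00526).

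Of the other marker lists, 5 erythroid, 4 platelet, 5 epithelial and 4 fibroblast genes were read. In MOLM-13 the summed epithelial markers, from 2 of the 5 genes above 0, were 451 to 750 with pLKO and 769 to 853 with shRNF5. In U937 COL1A1, the 1 fibroblast gene above 0, had 39 to 234 with pLKO and 15 to 29 with shRNF5, and KLF1 was the 1 erythroid gene above 0. The globin genes were at 0 in every library.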
